A study of Mus musculus with 10 samples.

Results

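The 36 imprinted genes listed here, from 17 loci, were followed across 5 lines of mouse embryonic stem cells (mESCs). They are textbook imprinted genes, chosen by name with earlier results of these data known. They were grouped by locus and by the parental allele they are known to be expressed from. The table used held a row for 30 of them among its 20325 genes, and 29 were tested. The noncoding RNAs *H19*, *Airn*, *Meg3*, *Rian*, *Mirg* and *Kcnq1ot1* had no row in that table and were not analysed here. Of the listed genes 15 are maternally and 21 paternally expressed, and of those with a row 11 and 19.

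The lines were Daxx-/- mESCs and Daxx-/- mESCs with a Daxx WT transgene, both of strain 129/SvEv, and H3.3 KO mESCs alone or with a transgene of H3.3 WT or of H3.3 L126A-L130A, all of strain 129 x C57BL/6J. L126A-L130A is the labels' spelling for a mutant that the study describes as unable to enter chromatin. All lines grew without feeders on gelatin in 2i+LIF medium, which held 3 μM CHIR99021 and 1 μM PD0325901. The transgenes were lentiviral, tagged and driven by the EF1 promoter, and transduced cells were selected with puromycin. Each line had 2 libraries of polyA RNA. Whether the lines were single clones is not stated in the labels.

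Imprinted genes are expressed mainly from the copy inherited from a single parent. In many cases this is because DNA methylation laid down in the egg or the sperm at a control region persists in the embryo. ZFP57 binds the methylated motif TGCCGC at many of these regions and recruits TRIM28, which keeps them methylated. Many imprinted genes act on fetal and placental growth, and in mESCs their expression is known to vary between lines and with culture. DAXX is a chaperone of the histone variant H3.3 and acts with ATRX at heterochromatin.

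Library totals lay between 15463625 and 21396585 expected counts. Levels are given as normalised CPM, counts relative to the library total (CPM) after median-of-ratios scaling, written CPM from here on, with replicate 1 before replicate 2. A gene was called changed when edgeR's quasi-likelihood test gave an adjusted p under 0.05, over the 13201 genes tested, and the fitted change was at least 2-fold. SE stands for standard error. Counts per gene do not separate the parental alleles, so loss of imprinting was not measured. The library kit does not mark the strand, so reads from overlapping genes on opposite strands cannot be separated.

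The targeted genes were looked at first. *Daxx* was measured at 82.6 and 72.9 normalised CPM in Daxx-/- mESCs and 206 and 206 with DAXX, and between 59.4 and 101 in the H3.3 lines. The H3.3 gene *H3f3a* was at 2.84 to 10.9 in the H3.3 lines and at 382 to 494 in the Daxx lines. The other H3.3 gene, *H3f3b*, was measured at 313 and 380.2 CPM in Daxx-/- mESCs, 116 and 84.4 with DAXX, 509 and 720.0 in H3.3 KO mESCs, 204 and 139 with WT H3.3, and 386 and 324 with L126A-L130A H3.3. *Daxx* was higher with its transgene and *H3f3a* was low in every H3.3 library. The labels do not say which part of a gene was deleted, so reads left on *Daxx* and *H3f3b* in their KO lines check neither deletion, and the H3.3 transgenes were not seen as a rise of either H3.3 gene. *H3f3b* was called lower with WT H3.3, at a log2 fold change of -1.84 (SE 0.26, adjusted p = 0.0311). With DAXX it was also called lower, at -1.79 (SE 0.26, adjusted p = 0.0244). The WT H3.3 call was lost without any 1 library of the H3.3 lines, at values between -2.14 and -1.57. The DAXX call was lost without Daxx-/- replicate 2 or any 1 DAXX or WT H3.3 library, at values between -2.04 and -1.58.

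The cell type of the labels was checked against marker genes. Of 10 naive pluripotency genes 9 had a row, and their summed level lay between 3561 and 5646 normalised CPM, with *Pou5f1* the most abundant at between 929 and 1312. The 11 fibroblast genes summed to between 8.09 and 64.6, with *Thy1* the most abundant, and *Col1a2*, *Col3a1*, *Postn*, *Twist2*, *Acta2* and *Lum* stayed under 1 CPM in every library. The 8 primitive endoderm genes summed to between 5.85 and 22.9, with *Gata4* the most abundant and *Sox7*, *Foxa2* and *Afp* under 1 CPM. Trophoblast markers, 7 of 8 with a row, summed to between 12.1 and 34.6, with *Eomes* the most abundant and *Cdx2*, *Elf5* and *Plac1* under 1 CPM. The neural list, 5 of 6 with a row, summed to between 90.5 and 262, with *Tubb3* the most abundant. Markers of naive pluripotency were thus far above those of fibroblasts, primitive endoderm and trophoblast in all 10 libraries.

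The listed genes together made up between 1324 and 1739 normalised CPM per library. Of the 30 with a row, 14 were above 10 CPM in all 10 libraries and 10 stayed under 10 CPM in all of them. Levels of different genes were compared per kilobase of merged exons in the GENCODE M21 annotation. These join the exons of every annotated transcript, so a gene with long, little used exons comes out low on that scale. On that scale the medians over the libraries were highest for *Impact*, a regulator of translation, at 42.1 CPM per kb, then for the amino acid transporter *Slc38a4* at 38.5 and the spliceosomal protein gene *Snrpn* at 36.2. *Copg2*, a coatomer subunit, followed at 27.3, *Mest* at 22.3 and the IGF2 receptor *Igf2r* at 21.9 CPM per kb. At the other end stood the fetal growth factor *Igf2* at 0.138, *Magel2* at 0.134, *Sgce* at 0.121 and *Zim1* at 0.0784. The range between libraries of a gene was itself wide, from 1.35 to 89.3 CPM per kb for *Slc38a4* and from 25.7 to 72.4 for *Impact*, so the order of near neighbours is not fixed.

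**Figure D1:**
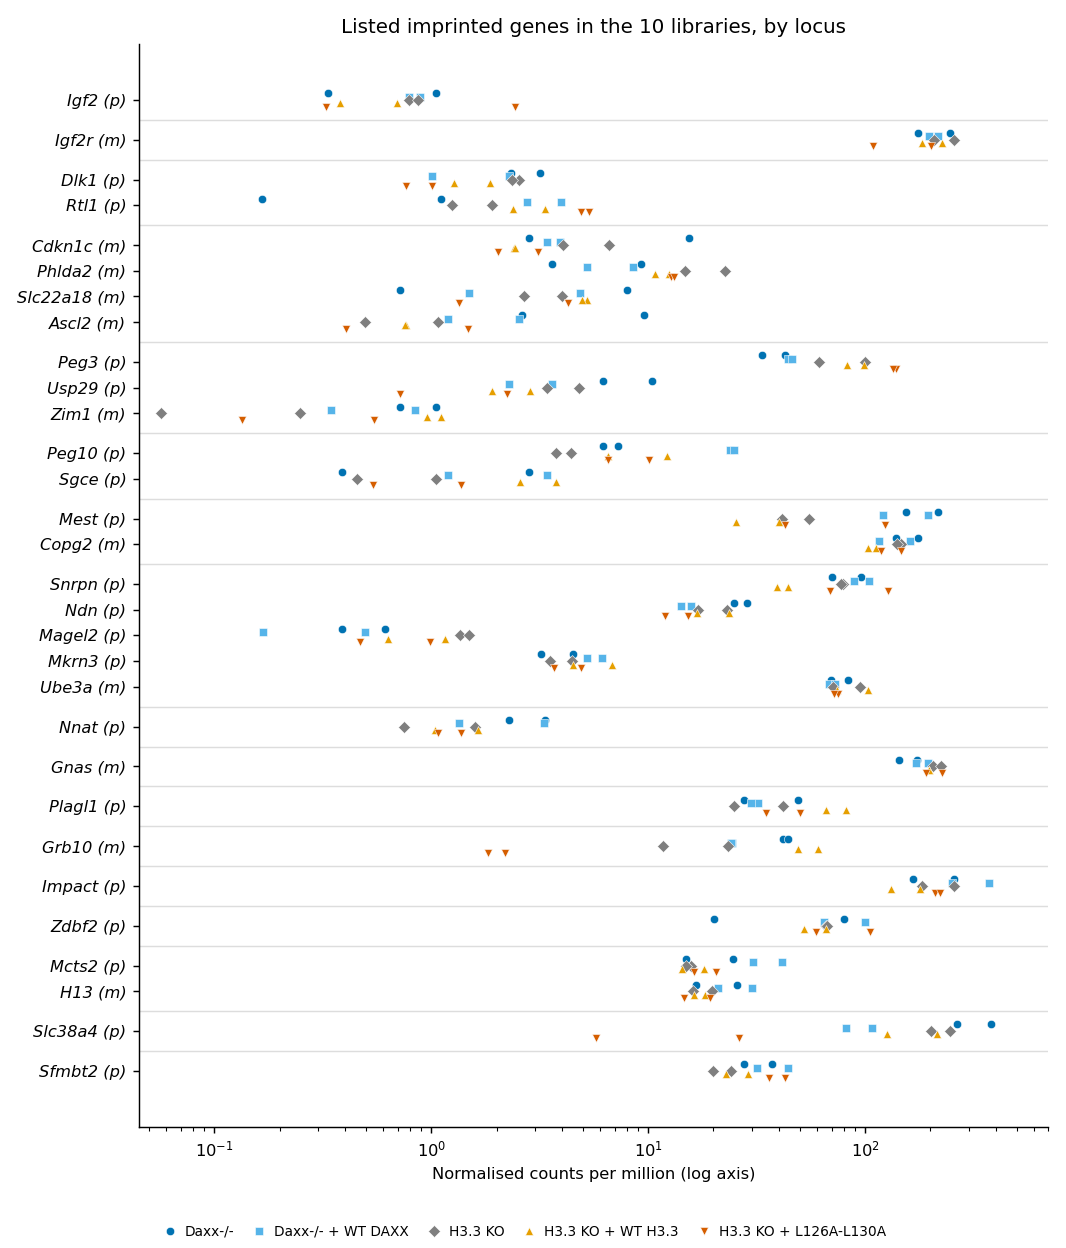
Normalised CPM (log axis) of the 30 listed imprinted genes with a row, 1 point per library, coloured by line and grouped by locus; m and p mark maternal and paternal expression. In *Grb10* and *Slc38a4* both L126A-L130A libraries lie to the left of all others.

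*Grb10* encodes an adaptor that dampens signalling by the insulin and IGF receptors, and outside neurons it is expressed from the maternal allele. *Grb10* was measured at 41.7 and 44.2 CPM in Daxx-/- mESCs, 24.2 and 24.1 with DAXX, 11.7 and 23.3 in H3.3 KO mESCs, 49.2 and 60.9 with WT H3.3, and 1.82 and 2.19 with L126A-L130A H3.3. Both L126A-L130A libraries lay below all 8 others, both WT H3.3 libraries lay above all 8 others, and the Daxx lines did not overlap each other. With the mutant it fell, at log2 fold changes of -3.11 (SE 0.33, adjusted p = 0.00948) against H3.3 KO and -4.77 (SE 0.34, adjusted p = 0.00269) against WT H3.3. Both calls were lost without replicate 1 of the L126A-L130A line (adjusted p = 0.176 and 0.103), where the log2 fold changes were -2.99 and -4.65. The remaining comparisons within a parental line did not pass, at log2 fold changes of 1.66 (SE 0.29, adjusted p = 0.0729) with WT H3.3 against H3.3 KO and -0.83 (SE 0.28, adjusted p = 0.142) with DAXX against Daxx-/-. The first was called with no filter (adjusted p = 0.0324), with only the groups compared (adjusted p = 0.0196) and by DESeq2 (adjusted p = 3.3e-05). In bulk RNA, fewer cells that express a gene and less RNA per cell cannot be told apart. The comparisons that involve H3.3 KO or the L126A-L130A line share their libraries and are not independent. None of the nearest tested neighbours was called in either L126A-L130A comparison by edgeR: *Ddc*, *Fignl1*, *Cobl* and *Sec61g* had log2 fold changes between -0.72 and 0.45.

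*Slc38a4*, a paternally expressed transporter of amino acids, was also low with the mutant. *Slc38a4* was measured at 264 and 380.3 CPM in Daxx-/- mESCs, 81.6 and 107 with DAXX, 201 and 246 in H3.3 KO mESCs, 127 and 215 with WT H3.3, and 5.73 and 26.3 with L126A-L130A H3.3. Both L126A-L130A libraries lay below all 8 others and differed between themselves, the H3.3 KO and WT H3.3 libraries overlapped, and both DAXX libraries lay below both Daxx-/- libraries. With the mutant *Slc38a4* fell, at log2 fold changes of -3.79 (SE 0.59, adjusted p = 0.0331) against H3.3 KO and -3.40 (SE 0.59, adjusted p = 0.0486) against WT H3.3. Each of these calls was lost without any 1 of the DAXX, H3.3 KO and WT H3.3 libraries or L126A-L130A replicate 1, where the adjusted p lay between 0.0532 and 0.196 against H3.3 KO and between 0.0857 and 0.371 against WT H3.3. In those fits the log2 fold change lay between -3.93 and -3.08 and between -3.73 and -2.70. Without L126A-L130A replicate 2 both calls held, at -5.28 and -4.90. With only the groups compared in the fit, neither passed (adjusted p = 0.0566 and 0.116), nor did the second with TMM factors (adjusted p = 0.0510). With DAXX the log2 fold change was -1.77 (SE 0.54, adjusted p = 0.117), which did not pass, but it was called without L126A-L130A replicate 1 or 2 (adjusted p = 0.0385 and 0.0373). WT H3.3 gave -0.39 (SE 0.52, adjusted p = 0.805). Of its nearest tested neighbours, *Slc38a1*, *Slc38a2* and *Rpap3* were not called.

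The neighbour *Amigo2*, which encodes an adhesion molecule, was called lower in the mutant than in H3.3 KO mESCs, with a log2 fold change of -2.50 (SE 0.46, adjusted p = 0.0466). It lies 188 kb from *Slc38a4* in GRCm38 and its level was between 0.383 and 3.55 CPM in all libraries. Against WT H3.3 it was not called, at -1.81 (SE 0.47, adjusted p = 0.143). The call against H3.3 KO was lost without any 1 library other than the Daxx-/- replicates, with an adjusted p between 0.0728 and 0.271. With only the groups compared it was lost too (adjusted p = 0.117).

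Summed levels of 3 other lists are given beside these results. Primed epiblast genes, 5 of 5 with a row and *Dnmt3b* the most abundant, summed to 101 and 56.4 CPM in Daxx-/- mESCs, 158 and 107 with DAXX, 67.5 and 66.02 in H3.3 KO mESCs, 58.9 and 57.6 with WT H3.3, and 286 and 103 with L126A-L130A H3.3. Genes of the 2-cell-like state, 5 of 8 with a row and *Gm4340* the most abundant, summed to 63.5 and 21.8 CPM in Daxx-/- mESCs, 94.3 and 11.95 with DAXX, 174 and 276 in H3.3 KO mESCs, 180.2 and 281 with WT H3.3, and 3.08 and 56.9 with L126A-L130A H3.3. Replicate 1 of the L126A-L130A line was highest of all libraries for the first list and lowest for the second, while replicate 2 lay below both DAXX libraries for the first. The first sum was mostly *Dnmt3b*, and the median log2 fold change of the 4 primed genes tested was 0.33 against H3.3 KO and -0.21 against WT H3.3, while that of the 5 2-cell-like genes was -2.97 and -2.83. In each of both mutant comparisons edgeR called 0 genes of either list, with 1 of 4 primed and 4 of 5 2-cell-like genes at an unadjusted p under 0.05, and DESeq2 called 1, *Dnmt3b*, and 0. The trophoblast markers, among them the listed gene *Ascl2*, summed to 22.1 and 34.6 CPM in Daxx-/- mESCs, 22.4 and 29.4 with DAXX, 12.7 and 12.1 in H3.3 KO mESCs, 13.3 and 15.3 with WT H3.3, and 19.4 and 24.5 with L126A-L130A H3.3. The L126A-L130A libraries lay above those of the other H3.3 lines, with replicate 1 below all 4 libraries of the Daxx lines, and of 3 trophoblast genes tested edgeR called 0 in both mutant comparisons, with 1 at an unadjusted p under 0.05 in each, and DESeq2 called 1, *Eomes*, in each. The 5 fibroblast genes tested had median log2 fold changes of -0.59 against H3.3 KO and -1.15 against WT H3.3. Those of the 5 primitive endoderm genes tested were -1.04 and -0.46. Of both lists edgeR and DESeq2 called 0 genes in these comparisons, with 0 at an unadjusted p under 0.05 in edgeR. The part of these lists in the *Grb10* and *Slc38a4* results was not tested.

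Promoter sequences of *Grb10* and *Slc38a4* are shown because both genes were called in the L126A-L130A comparisons, and were not compared with imprinting control regions. They come from RefSeq with build GRCm38.p6 and run from 250 bases before to 30 bases after a transcription start, and capitals mark TGCCGC or its reverse complement. *Grb10* had 2 starts in the RefSeq table and *Slc38a4* had 3, of which 1 each is printed, at chr11:12037391-12037670, minus strand and at chr15:97055927-97056206, minus strand.
Grb10: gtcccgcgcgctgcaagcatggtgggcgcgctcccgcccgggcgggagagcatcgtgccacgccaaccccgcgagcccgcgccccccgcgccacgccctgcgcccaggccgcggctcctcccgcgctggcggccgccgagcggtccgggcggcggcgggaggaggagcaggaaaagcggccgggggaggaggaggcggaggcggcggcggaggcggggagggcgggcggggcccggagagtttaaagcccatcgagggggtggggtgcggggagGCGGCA
Slc38a4: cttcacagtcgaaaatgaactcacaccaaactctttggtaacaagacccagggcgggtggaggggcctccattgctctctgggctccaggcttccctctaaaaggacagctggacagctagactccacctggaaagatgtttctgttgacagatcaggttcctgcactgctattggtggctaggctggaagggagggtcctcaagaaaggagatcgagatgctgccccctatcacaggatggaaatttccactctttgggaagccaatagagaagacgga
The *Grb10* stretch held 43 CpG and ended in the motif, while the window of 300 bases at its other start held 9 CpG and no motif. The *Slc38a4* stretch held 4 CpG, and these letters did not occur in it or in the windows at its other starts.

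**Figure D2:**
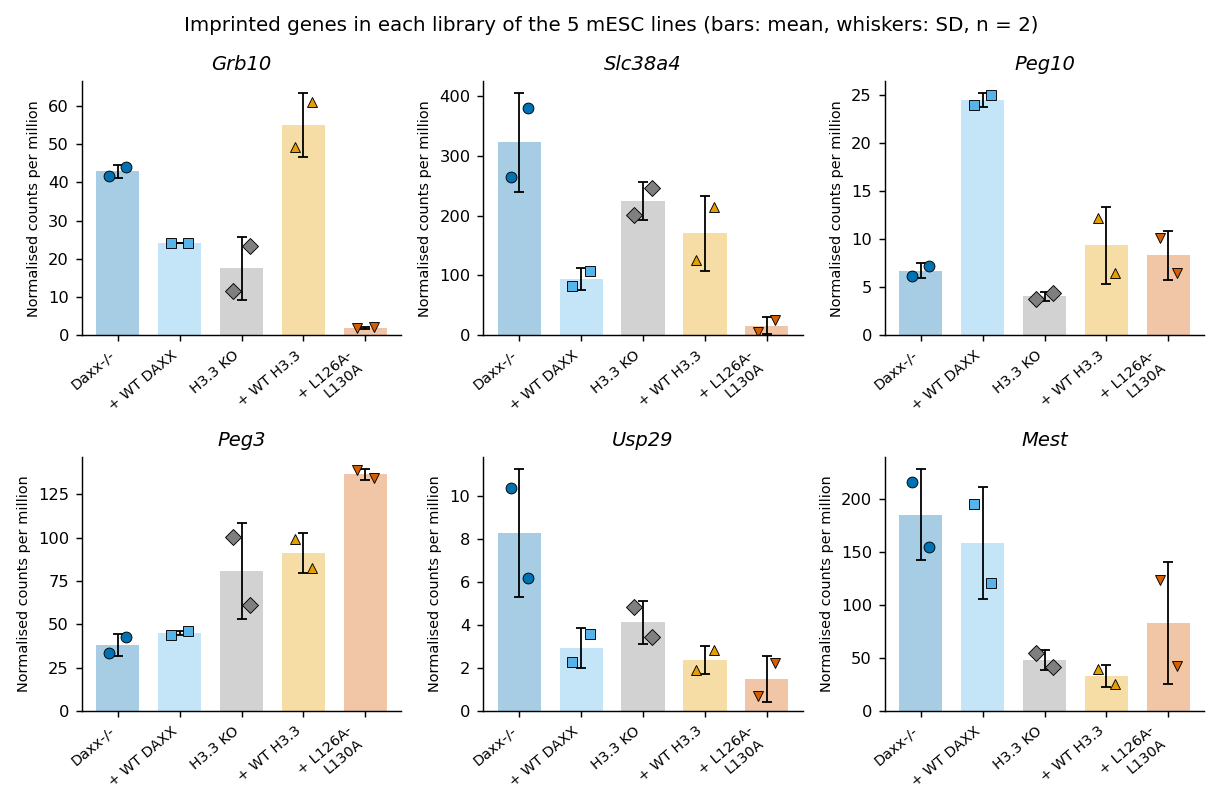
Normalised CPM of *Grb10*, *Slc38a4*, *Peg10*, *Peg3*, *Usp29* and *Mest* in each line; bars are means, whiskers SD (n = 2) and points the libraries. *Grb10* and *Slc38a4* were lowest with L126A-L130A H3.3, *Peg10* was highest with DAXX, and *Peg3* was higher in the H3.3 lines than in the Daxx lines.

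*Peg10* encodes a retrotransposon-derived protein needed by the placenta and shares a start region with *Sgce*, which encodes epsilon-sarcoglycan; both are paternally expressed. *Peg10* was measured at 6.21 and 7.27 CPM in Daxx-/- mESCs, 23.9 and 24.99 with DAXX, 3.74 and 4.42 in H3.3 KO mESCs, 12.2 and 6.51 with WT H3.3, and 10.1 and 6.51 with L126A-L130A H3.3. Both DAXX libraries lay above all 8 others and both H3.3 KO libraries below all 8 others. *Peg10* rose with DAXX, by a log2 fold change of 1.86 (SE 0.34, adjusted p = 0.0420). The call was lost without Daxx-/- replicate 2 or any 1 of the DAXX, H3.3 KO and WT H3.3 libraries, with an adjusted p between 0.0618 and 0.293 and a log2 fold change between 1.82 and 1.97. With only the Daxx lines in the fit the adjusted p was 0.131. Against H3.3 KO the log2 fold changes were 1.20 (SE 0.35, adjusted p = 0.209) with WT H3.3 and 1.03 (SE 0.35, adjusted p = 0.186) with L126A-L130A H3.3, without overlap and without passing. These were 0.67 without WT H3.3 replicate 1 and 0.68 without L126A-L130A replicate 1. *Sgce* was measured at 0.388 and 2.83 CPM in Daxx-/- mESCs, 1.19 and 3.42 with DAXX, 0.453 and 1.06 in H3.3 KO mESCs, 3.75 and 2.56 with WT H3.3, and 0.539 and 1.37 with L126A-L130A H3.3. Its replicates differed widely in Daxx-/- mESCs, and its WT H3.3 libraries lay above both H3.3 KO and both L126A-L130A libraries, at log2 fold changes of 2.06 (SE 0.93, adjusted p = 0.384) against H3.3 KO and -1.70 (SE 0.91, adjusted p = 0.513) for the mutant against WT H3.3, of which neither passed. The first was 2.78 without H3.3 KO replicate 2 and the second -2.53 without L126A-L130A replicate 2.

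The *Peg3* locus holds the paternally expressed genes *Peg3*, a zinc finger protein, and *Usp29*, a ubiquitin-specific peptidase, and the maternally expressed zinc finger gene *Zim1*. *Peg3* was measured at 33.4 and 42.6 CPM in Daxx-/- mESCs, 44.05 and 46.04 with DAXX, 100.2 and 61.001 in H3.3 KO mESCs, 99.1 and 82.8 with WT H3.3, and 139 and 134 with L126A-L130A H3.3. All 6 libraries of the H3.3 lines lay above all 4 of the Daxx lines, and both L126A-L130A libraries were the highest. *Usp29* was measured at 10.4 and 6.16 CPM in Daxx-/- mESCs, 2.28 and 3.59 with DAXX, 4.81 and 3.42 in H3.3 KO mESCs, 1.91 and 2.85 with WT H3.3, and 0.721 and 2.24 with L126A-L130A H3.3. Its Daxx-/- libraries were the highest, the DAXX libraries lay below both, and the L126A-L130A libraries lay below both H3.3 KO libraries. These separations reached log2 fold changes of -1.49 (SE 0.53, adjusted p = 0.156) with DAXX and -1.44 (SE 0.55, adjusted p = 0.230) with L126A-L130A H3.3, which did not pass. The second was -0.87 without L126A-L130A replicate 1 and -2.46 without replicate 2. *Zim1* lay between 0.0567 and 1.104 CPM, between 1 and 19 expected counts, and was not tested because too few libraries reached 1 CPM before scaling.

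*Peg3* and *Usp29* are read in opposite directions from neighbouring starts, and their RefSeq windows of 300 bases share 263. The 163 bases between both starts are printed on the plus strand, in the direction of *Usp29*, at chr7:6730420-6730582, plus strand of GRCm38.p6.
Peg3 and Usp29: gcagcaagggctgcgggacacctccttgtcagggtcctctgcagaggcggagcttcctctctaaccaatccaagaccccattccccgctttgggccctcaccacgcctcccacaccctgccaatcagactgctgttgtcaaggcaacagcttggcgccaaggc
They held 5 CpG and the letters TGCCGC did not occur in them.

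*Mest*, a paternally expressed gene of the mesoderm, and *Copg2*, maternally expressed, lie tail to tail and overlap over 912 bases of exon on opposite strands, so part of their counts cannot be separated. *Mest* was measured at 216 and 155 CPM in Daxx-/- mESCs, 196 and 121 with DAXX, 54.96 and 41.3 in H3.3 KO mESCs, 40.1 and 25.5 with WT H3.3, and 124 and 42.7 with L126A-L130A H3.3. The Daxx lines were high, at 121 or more, and the H3.3 lines were at 42.01 in the median, with L126A-L130A replicate 1 alone reaching the range of the Daxx lines. With the mutant against WT H3.3 the log2 fold change was 1.34 (SE 0.47, adjusted p = 0.277), which did not pass and was 0.38 without L126A-L130A replicate 1. *Copg2* lay between 104 and 176 CPM. *Mest* had 3 starts in the RefSeq table, 2 of them 3 bases apart, and the stretch around 1 of these, at chr6:30737800-30738079, plus strand of GRCm38.p6, is printed as above because it held the motif at 2 places and 16 CpG.
Mest: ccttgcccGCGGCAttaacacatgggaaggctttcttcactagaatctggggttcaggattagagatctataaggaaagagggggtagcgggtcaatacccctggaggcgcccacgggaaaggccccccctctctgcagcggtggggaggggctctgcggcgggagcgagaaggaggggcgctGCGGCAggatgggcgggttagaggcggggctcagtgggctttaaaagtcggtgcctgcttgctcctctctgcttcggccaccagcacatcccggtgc
Capitals again mark the motif, here as its reverse complement.

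In the *Kcnq1ot1* locus, 4 maternally expressed genes were measured: *Cdkn1c*, the cell-cycle inhibitor p57, *Phlda2*, which limits growth of the placenta, the transporter *Slc22a18* and *Ascl2*, a transcription factor of the trophoblast. *Phlda2* was measured at 3.605 and 9.26 CPM in Daxx-/- mESCs, 5.203 and 8.53 with DAXX, 22.7 and 14.8 in H3.3 KO mESCs, 10.7 and 12.5 with WT H3.3, and 12.7 and 13.1 with L126A-L130A H3.3. All 6 libraries of the H3.3 lines lay above all 4 of the Daxx lines. *Cdkn1c* was measured at 2.83 and 15.4 CPM in Daxx-/- mESCs, 3.91 and 3.42 with DAXX, 6.57 and 4.04 in H3.3 KO mESCs, 2.41 and 2.44 with WT H3.3, and 3.102 and 2.03 with L126A-L130A H3.3. Daxx-/- replicate 2 was far above replicate 1, and both H3.3 KO libraries lay above the WT H3.3 and L126A-L130A libraries, at log2 fold changes of -1.13 (SE 0.67, adjusted p = 0.524) and -1.05 (SE 0.67, adjusted p = 0.474), or -0.73 and -0.66 without H3.3 KO replicate 1. *Ascl2* was measured at 2.61 and 9.598 CPM in Daxx-/- mESCs, 1.19 and 2.53 with DAXX, 1.08 and 0.497 in H3.3 KO mESCs, 0.762 and 0.755 with WT H3.3, and 0.405 and 1.48 with L126A-L130A H3.3. Daxx-/- replicate 2 was again the highest, and with DAXX both libraries lay below both Daxx-/- libraries, at -1.72 (SE 0.75, adjusted p = 0.226), or -2.37 without Daxx-/- replicate 1, -2.36 without DAXX replicate 2 and -0.50 (adjusted p = 0.796) without Daxx-/- replicate 2. *Slc22a18* lay between 0.721 and 7.99 CPM, both extremes in the Daxx-/- line. None of these genes passed the main test within a parental line. With DAXX *Cdkn1c* was at -1.31 (SE 0.66, adjusted p = 0.278), and it was called without Daxx-/- replicate 1, at -2.07 (adjusted p = 0.0231). Of all libraries Daxx-/- replicate 2 also had the highest sums of fibroblast, primitive endoderm and trophoblast markers, the last with *Ascl2* among them. In Daxx-/- mESCs these were 34.001 and 64.6, 8.49 and 22.9 and 22.1 and 34.6 CPM. Daxx-/- replicate 2 had the lowest sums of naive pluripotency, neural and primed epiblast genes, at 3561, 90.5 and 56.4. The part of these markers in the results of this locus was not tested.

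At the *Dlk1*-*Meg3* locus the paternally expressed coding genes are *Dlk1*, a transmembrane ligand of the Notch family, and *Rtl1*, a retrotransposon-derived protein of the placenta. *Dlk1* was measured at 2.33 and 3.16 CPM in Daxx-/- mESCs, 2.28 and 1.01 with DAXX, 2.55 and 2.36 in H3.3 KO mESCs, 1.27 and 1.86 with WT H3.3, and 1.01 and 0.766 with L126A-L130A H3.3. The L126A-L130A libraries lay below both H3.3 KO libraries, at a log2 fold change of -1.46 (SE 0.51, adjusted p = 0.197). *Rtl1* was measured at 1.11 and 0.166 CPM in Daxx-/- mESCs, 3.95 and 2.77 with DAXX, 1.25 and 1.898 in H3.3 KO mESCs, 3.35 and 2.38 with WT H3.3, and 4.89 and 5.32 with L126A-L130A H3.3. Its L126A-L130A libraries were the highest of all and its Daxx-/- libraries the lowest, at log2 fold changes of 1.69 (SE 0.63, adjusted p = 0.223) for the mutant against H3.3 KO and 2.38 (SE 0.68, adjusted p = 0.101) with DAXX. Neither gene passed the test in these comparisons. *Rtl1* with DAXX was called by DESeq2 (adjusted p = 0.0148) and without Daxx-/- replicate 1, at 4.28 (adjusted p = 0.0175), and was 1.59 without Daxx-/- replicate 2. *Rtl1* rested on between 2.99 and 97.1 expected counts. Its overlap with genes that had no row, among them the noncoding RNAs of this locus, was not examined, and reads from an opposite strand could not be separated.

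The growth factor *Igf2*, paternally expressed, lay between 0.328 and 2.43 CPM and between 6 and 36 expected counts. Its receptor *Igf2r*, maternally expressed, which clears IGF2 from the cell surface, lay between 109 and 256 CPM, with L126A-L130A replicate 1 the lowest. Neither was called in any comparison run with edgeR's quasi-likelihood test.

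The *Snrpn*-*Ube3a* locus is paternally expressed apart from *Ube3a*, a ubiquitin ligase that is imprinted in neurons. *Snrpn*, whose exons overlap those of *Snurf* on the same strand, was measured at 95.8 and 70.6 CPM in Daxx-/- mESCs, 104 and 88.9 with DAXX, 79.3 and 77.1 in H3.3 KO mESCs, 43.95 and 39.1 with WT H3.3, and 128 and 69.2 with L126A-L130A H3.3. Both WT H3.3 libraries lay below all 8 others. The mutant against WT H3.3 gave a log2 fold change of 1.24 (SE 0.27, adjusted p = 0.0998), which did not pass, while DESeq2 called it (adjusted p = 0.00139). It was called without L126A-L130A replicate 2 (adjusted p = 0.0296) and was at 0.73 without replicate 1. *Ndn*, of the MAGE family, lay between 12.002 and 28.5 CPM, its relative *Magel2* between 0.168 and 1.49, and the RING finger gene *Mkrn3* between 3.22 and 6.796. *Ube3a* lay between 68.001 and 103 CPM. Genes of this locus thus did not share an order of the lines, since *Snrpn* was lowest with WT H3.3 and the lowest library of *Ndn* was L126A-L130A replicate 1.

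Among the loci with a single listed gene, *Plagl1*, a paternally expressed zinc finger protein, was measured at 49.1 and 27.7 CPM in Daxx-/- mESCs, 32.1 and 29.7 with DAXX, 24.9 and 41.98 in H3.3 KO mESCs, 81.4 and 66.3 with WT H3.3, and 50.4 and 34.9 with L126A-L130A H3.3. Both WT H3.3 libraries lay above all 8 others, at a log2 fold change of 1.14 (SE 0.33, adjusted p = 0.206) against H3.3 KO that did not pass but was called with only the groups compared (adjusted p = 0.0306) and by DESeq2 (adjusted p = 0.0321). *Nnat*, a small membrane protein, was measured at 2.27 and 3.33 CPM in Daxx-/- mESCs, 3.32 and 1.35 with DAXX, 1.59 and 0.745 in H3.3 KO mESCs, 1.65 and 1.05 with WT H3.3, and 1.08 and 1.37 with L126A-L130A H3.3. No line stood apart from its neighbours in *Nnat*, and the Daxx lines overlapped the H3.3 lines. *Gnas*, the stimulatory G protein subunit from a locus with transcripts of both alleles, lay between 143 and 226 CPM. *Impact* lay between 132 and 372, *Zdbf2* between 20.03 and 106 with Daxx-/- replicate 2 the lowest, and the Polycomb-group gene *Sfmbt2* between 19.9 and 44.3. *Mcts2*, a paternally expressed retrogene within an intron of the maternally expressed *H13*, lay between 14.3 and 41.3 CPM and *H13*, a signal peptide peptidase, between 14.7 and 29.98. Both were highest in DAXX replicate 1, and since *Mcts2* derives from *Mcts1*, reads may be split between these copies.

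**Figure D3:**
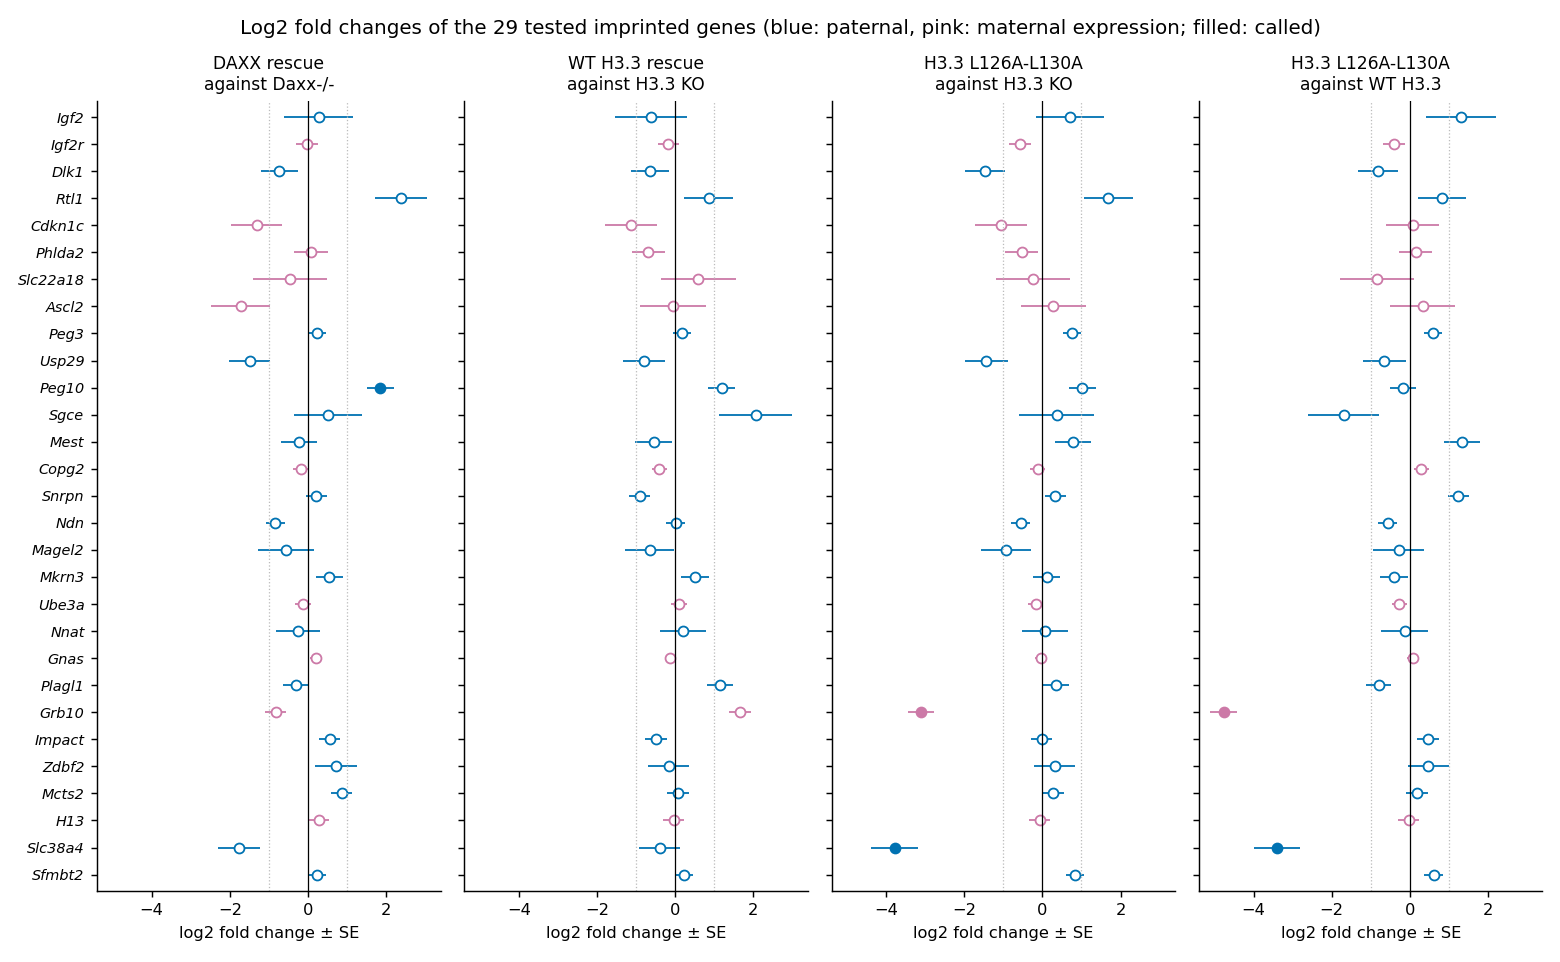
Log2 fold changes with standard errors of the 29 tested genes in the 4 comparisons within a parental line, by locus; filled points were called, dotted lines mark 2-fold. *Grb10* and *Slc38a4* are filled in both L126A-L130A comparisons and *Peg10* with DAXX; most other points lie between the dotted lines.

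The first comparison asked what the return of DAXX does to Daxx-/- mESCs. Of the 29 tested imprinted genes 1 was called, *Peg10*, which rose, where 1.08% of all genes tested were called. Another 4 genes reached 2-fold without overlap of the libraries but did not pass, *Rtl1*, *Ascl2*, *Usp29* and *Slc38a4*, making 5 in all, where 9.18% of all genes did so. At an unadjusted p under 0.05 there were 8, and 21.8% of all genes. The median log2 fold change was -0.03 for the listed genes and -0.02 for all, with 14 above and 15 below 0, and the median size was 0.51 against 0.33. The count was 5 without Daxx-/- replicate 1, with *Rtl1*, *Cdkn1c*, *Mcts2* at 1.27 (adjusted p = 0.03002) and *Zdbf2* at 2.04 (adjusted p = 0.0234) added, and 2 without either L126A-L130A library, with *Slc38a4* added. It was 0 without Daxx-/- replicate 2 or any 1 of the DAXX, H3.3 KO and WT H3.3 libraries, and DESeq2 called 2, *Peg10* and *Rtl1*. Markers of some other cell types had, in the same comparison, median log2 fold changes of -1.21 for 5 fibroblast and -1.45 for 5 primitive endoderm genes tested. For 3 trophoblast genes tested the median was -1.72, which is the value of the listed gene *Ascl2* itself. Trophoblast sums of both lines overlapped, at 22.1 and 34.6 CPM in Daxx-/- mESCs and 22.4 and 29.4 with DAXX. EdgeR called 0 genes of these lists. At an unadjusted p under 0.05 there were 3, 2 and 1, the last again *Ascl2*, and DESeq2 called 1, *Col1a1*. The remaining lists went the other way. Their medians were 0.78 for 4 primed epiblast, 0.36 for 5 2-cell-like, 0.25 for 5 neural and 0.15 for 9 naive pluripotency genes tested. The part of these markers in the imprinted results was not tested.

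The second comparison asked what WT H3.3 does in H3.3 KO mESCs. With edgeR 0 listed genes were called, where 0.25% of all genes were, with 4 at an unadjusted p under 0.05, where 13.3% of all genes were, and 2 called by DESeq2, *Grb10* and *Plagl1*. *Cdkn1c*, *Peg10*, *Sgce*, *Plagl1* and *Grb10*, 5 genes, reached 2-fold without overlap, where 6.85% of all genes did. The median log2 fold change was -0.06 against 0.02 for all genes, with 13 above and 16 below 0, and the median size 0.50 against 0.24. The edgeR count was 1 with no filter, *Grb10*, and 2 with only the groups compared, *Grb10* and *Plagl1*.

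L126A-L130A H3.3 was compared with H3.3 KO to see what an H3.3 outside chromatin does in cells without their own. Of the listed genes 2 were called, *Grb10* and *Slc38a4*, both lower, where 0.788% of all genes were called. In addition *Dlk1*, *Rtl1*, *Cdkn1c*, *Usp29* and *Peg10* reached 2-fold without overlap, 7 genes in all, where 9.39% of all genes did. Listed genes at an unadjusted p under 0.05 numbered 9, where 16.9% of all genes were. The median log2 fold change was -0.02 against 0.03 for all genes, and the median size 0.54 against 0.27. The count was 0 without L126A-L130A replicate 1 and 1 without any 1 of the DAXX, H3.3 KO and WT H3.3 libraries.

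Against WT H3.3, the mutant again differed in 2 listed genes, *Grb10* and *Slc38a4*, both lower, where 0.515% of all genes were called. *Sgce*, *Mest* and *Snrpn* also reached 2-fold without overlap, 5 genes in all, where 8.16% of all genes did. There were 8 listed genes at an unadjusted p under 0.05, where 12.3% of all genes were. The median log2 fold change was -0.03 against 0.00 for all genes, and the median size 0.48 against 0.22. The count was 0 without L126A-L130A replicate 1, 1 without any 1 of the DAXX, H3.3 KO and WT H3.3 libraries, and 3 without L126A-L130A replicate 2, and DESeq2 called 3, the third in both being *Snrpn*. This comparison shares libraries with the other comparisons of the H3.3 lines, so the repeated names are not independent.

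The H3.3 lines were then compared with the Daxx lines, which in effect compares 2 parental lines: strain, derivation and genotype cannot be told apart. Of the listed genes 8 were called, where 12.5% of all genes were, with *Peg3* and *Phlda2* higher in the H3.3 lines and *Mest*, *Grb10*, *Ascl2*, *Slc38a4*, *Nnat* and *Usp29* lower. Only *Peg3* and *Phlda2*, 2 genes, were at least 2-fold apart without overlap, where 7.81% of all genes were. *Peg3* was higher, at a log2 fold change of 1.27 (SE 0.15, adjusted p = 3.9e-04), while *Usp29*, read from the other side of the same start region, was lower, at -1.001 (SE 0.34, adjusted p = 0.0421). *Mest* was lower, at -1.76 (SE 0.29, adjusted p = 0.00178), as was *Grb10*, at -1.37 (SE 0.19, adjusted p = 6.8e-04), and these calls of *Peg3*, *Mest* and *Grb10* held in all 10 fits that left out 1 library. *Phlda2* was higher, at 1.09 (SE 0.29, adjusted p = 0.0155). *Ascl2* was lower, at -2.01 (SE 0.50, adjusted p = 0.0118), *Slc38a4* at -1.03 (SE 0.34, adjusted p = 0.0367) and *Nnat* at -1.04 (SE 0.37, adjusted p = 0.0491). Under a single left-out library the count lay between 5 and 8, and it was 5 without either DAXX library or either H3.3 KO library. Some of these fits called genes not called with all libraries, *Cdkn1c* and *Rtl1* without Daxx-/- replicate 1, *Magel2* without DAXX replicate 1 or L126A-L130A replicate 1, and *Peg10* without WT H3.3 replicate 1 or L126A-L130A replicate 1.

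Each line was also left out with both its libraries, an alternative chosen after the data were seen. Without the L126A-L130A line *Grb10* was at -0.05 (adjusted p = 0.863) and *Slc38a4* at 0.17 (adjusted p = 0.537). Neither was then called, so both calls depended on that line, and the median over the listed genes was -0.08. Without the Daxx-/- line *Grb10* was at -0.95 (adjusted p = 0.0132), *Slc38a4* at -0.15 (adjusted p = 0.8003), *Usp29* at -0.25 (adjusted p = 0.661) and *Ascl2* at -1.15 (adjusted p = 0.118), and none of these 4 was called. *Usp29* was also lost without the WT H3.3 or the L126A-L130A line (adjusted p = 0.0949 and 0.125), *Phlda2* without the DAXX or the H3.3 KO line (adjusted p = 0.0519 and 0.0683), and *Nnat* without any 1 line (adjusted p between 0.0655 and 0.141). Only *Peg3* and *Mest* were called in all 5 of these fits. The count was 5 without the Daxx-/- line and 6 or 7 without another. *Mcts2* was called without the Daxx-/- line, at -1.11 (adjusted p = 0.00163), and *Rtl1* without the DAXX line, at 2.14 (adjusted p = 0.0384). *Magel2* was called without the L126A-L130A line, and *Peg10* without that line, the WT H3.3 line or the Daxx-/- line, at -1.85 (adjusted p = 0.00101) for the last.

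Several of these calls were lost in fits that left out 1 library, that of *Usp29* in 8 of 10 and those of *Slc38a4* and *Nnat* in 7 each. *Ascl2* was lost without DAXX replicate 2 (adjusted p = 0.0531) and was at -1.39 without Daxx-/- replicate 2. *Phlda2* was lost without Daxx-/- replicate 1, DAXX replicate 1 or H3.3 KO replicate 1, at log2 fold changes between 0.82 and 0.97 and adjusted p between 0.0201 and 0.0663. *Slc38a4* was lost without any 1 library other than Daxx-/- replicate 1, WT H3.3 replicate 2 and L126A-L130A replicate 2, at log2 fold changes between -1.13 and -0.80 and adjusted p between 0.0145 and 0.106. *Nnat* was lost without any 1 library other than Daxx-/- replicate 1, DAXX replicate 2 and H3.3 KO replicate 1, at log2 fold changes between -1.16 and -0.64 and adjusted p between 0.0703 and 0.253, and with TMM factors (adjusted p = 0.0513). *Usp29* was lost without any 1 library other than Daxx-/- replicate 2 and L126A-L130A replicate 2, at log2 fold changes between -1.15 and -0.79 and adjusted p between 0.0559 and 0.147, and with TMM factors or no filter its log2 fold change fell short of 2-fold, at -0.989 and -0.9994. Of the listed genes 20 had a negative and 9 a positive log2 fold change, and the median was -0.31 against -0.01 for all genes.

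**Figure D4:**
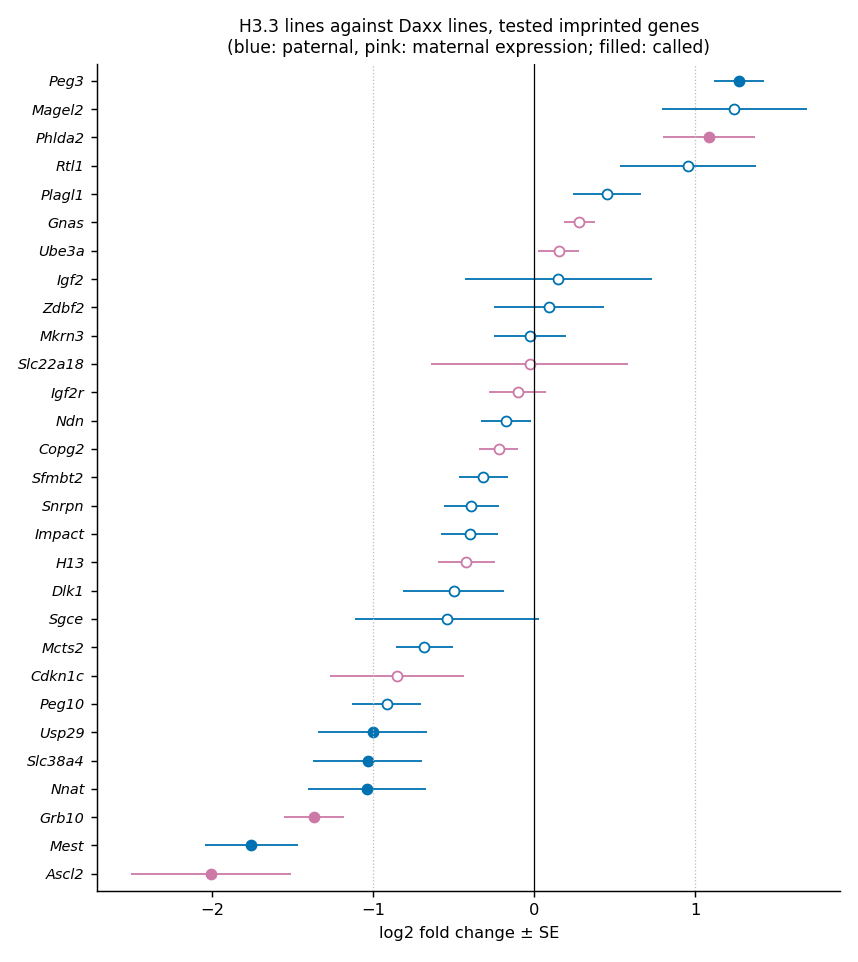
Log2 fold changes with standard errors of the 29 tested genes, H3.3 lines against Daxx lines, ordered by size; blue marks paternal and pink maternal expression, filled points were called. *Peg3* and *Phlda2* are filled on the right, and *Ascl2*, *Mest* and *Grb10* are the farthest left.

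The parental lines also differed in Y-linked genes. *Ddx3y*, *Uty*, *Kdm5d* and *Eif2s3y* summed to 0.0555 and 0.0555 CPM in Daxx-/- mESCs, 0.0991 and 0.112 with DAXX, 115 and 127 in H3.3 KO mESCs, 195 and 258 with WT H3.3, and 409.7 and 305 with L126A-L130A H3.3, and *Xist* had no row. All 4 Daxx-line libraries were near 0 and all 6 H3.3-line libraries were high, with *Ddx3y* the most abundant, so a difference in sex chromosomes cannot be told apart from strain and genotype either. All 4 were called between the lines, and only the call of *Kdm5d* was lost, without L126A-L130A replicate 1 (adjusted p = 0.9999). Among the H3.3 lines this sum was highest in the L126A-L130A libraries, but *Kdm5d* was lowest there, at 0.135 and 0 against 1.59 and 1.18 in H3.3 KO mESCs and 1.59 and 4.71 with WT H3.3, and *Eif2s3y*, at 80.4 and 62.6, did not lie above its 77.04 and 108 with WT H3.3. Neither was called in a mutant comparison by edgeR, while DESeq2 called *Kdm5d*, *Ddx3y* and *Uty* against WT H3.3. Against H3.3 KO *Uty* and *Ddx3y* were called higher with the mutant, at log2 fold changes of 1.93 (SE 0.26, adjusted p = 0.0186) and 1.74 (SE 0.22, adjusted p = 0.0186). Both calls were lost without either H3.3 KO library or L126A-L130A replicate 1, and that of *Uty* also without either WT H3.3 library, at adjusted p between 0.0562 and 0.191 for *Uty* and between 0.0977 and 0.188 for *Ddx3y*. Among the cell type markers, *Klf4* lay between 144 and 187 CPM in the Daxx lines and between 341 and 416 in the H3.3 lines, *Otx2* between 7.87 and 22.6 and between 0.889 and 1.42, *Neurod1* between 3.88 and 8.93 and between 1.204 and 2.22, *Fbln2* between 1.72 and 7.34 and between 0.337 and 1.57 and *Thy1* between 11.6 and 36.1 and between 3.24 and 7.66. *Klf4* was higher in the H3.3 lines, at a log2 fold change of 1.16 (SE 0.09, adjusted p = 6.4e-05), and *Otx2*, *Neurod1*, *Fbln2* and *Thy1* were lower, at -3.42 (SE 0.29, adjusted p = 8.5e-05), -1.91 (SE 0.31, adjusted p = 0.00172), -1.91 (SE 0.43, adjusted p = 0.00747) and -1.74 (SE 0.25, adjusted p = 9.6e-04). These 5 calls held in all 10 fits that left out 1 library, and that of *Fbln2* was lost without the L126A-L130A line (adjusted p = 0.0521). *Pdgfra* was called lower, at -1.49 (SE 0.41, adjusted p = 0.0187), and was lost without Daxx-/- replicate 2, DAXX replicate 2 or WT H3.3 replicate 1 (adjusted p between 0.0520 and 0.0669) and without the Daxx-/- or the WT H3.3 line (adjusted p = 0.06000 and 0.0581). *Sox1* was called higher, at 1.19 (SE 0.37, adjusted p = 0.0314), and was lost without replicate 1 of Daxx-/- or DAXX or replicate 2 of any of the H3.3 lines (adjusted p between 0.0664 and 0.115) and without any 1 line other than H3.3 KO (adjusted p between 0.0543 and 0.107). The median log2 fold changes between the lines were 0.36 for 9 naive pluripotency, -0.10 for 5 fibroblast and 0.19 for 5 primitive endoderm genes tested. They were -0.90 for 3 trophoblast, 0.31 for 4 primed epiblast and 0.08 for 5 neural genes tested. The called genes therefore do not stand for their whole lists. The part of these genes in the imprinted results was not tested.

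Whether an effect differed between comparisons was tested directly where these share no library. For the DAXX effect minus the WT H3.3 effect, edgeR called 0 listed genes, where 0.0455% of all genes were called, with 5 at an unadjusted p under 0.05, where 13.9% of all genes were, and 1 called by DESeq2, *Grb10*. *Grb10* differed by -2.48 (SE 0.40, adjusted p = 0.116) on the log2 scale, from -0.83 with DAXX and 1.66 with WT H3.3, and it was called without Daxx-/- replicate 1, which gave a count of 1. For the DAXX effect minus the L126A-L130A effect, edgeR called 0, where 0.0227% of all genes were called, with 2 at an unadjusted p under 0.05, *Grb10* and *Slc38a4*, where 11.2% of all genes were, and 1 called by DESeq2, *Grb10*. *Grb10* then differed by 2.28 (SE 0.43, adjusted p = 0.192) and *Slc38a4* by 2.02 (SE 0.76, adjusted p = 0.389).

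Grouped by parental allele, the 10 maternally expressed genes tested had medians of -0.15 after DAXX and -0.09 after WT H3.3 on the log2 scale, -0.21 for the mutant against H3.3 KO and 0.02 against WT H3.3. The 19 paternally expressed genes had 0.23, 0.01, 0.31 and -0.13 in the same order. With the mutant against H3.3 KO, 9 of 10 maternal genes had a negative and 13 of 19 paternal genes a positive value, and against WT H3.3 5 and 9, which is a description of these genes without a test. Genes of both groups were called: *Grb10* is maternal, and *Slc38a4* and *Peg10* are paternal.

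Across promoters, 30 of the listed genes had an entry in the RefSeq table, with 47 windows of 300 bases. *Igf2*, *Meg3*, *Zim1*, *Mest*, *Copg2*, *Snrpn*, *Nnat*, *Plagl1*, *Grb10*, *Zdbf2* and *Mcts2*, 11 genes, held TGCCGC on either strand in at least 1 window. They account for 12 of the windows, or 25.5%, where 11.6% of all 32851 windows held it. The median number of CpG was 14 per listed window and 7 over all windows. A match describes these letters and is not a binding site. Of the genes called within a parental line, *Grb10* held the motif, *Slc38a4* did not, and *Peg10* had no entry.

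Beyond the listed genes, 53 other imprinted genes were looked up, of which 31 were tested. *Smoc1*, a matrix protein gene, was measured at 34.1 and 26.3 CPM in Daxx-/- mESCs, 10.8 and 15.7 with DAXX, 46.9 and 51.2 in H3.3 KO mESCs, 13.7 and 20.6 with WT H3.3, and 13.4 and 12.5 with L126A-L130A H3.3. It fell with L126A-L130A H3.3 against H3.3 KO, at a log2 fold change of -1.92 (SE 0.26, adjusted p = 0.0192). With WT H3.3 it was at -1.51 (SE 0.26, adjusted p = 0.0705) and with DAXX at -1.19 (SE 0.26, adjusted p = 0.0589), which did not pass with edgeR and were called by DESeq2. The edgeR call was lost without either H3.3 KO or either L126A-L130A library (adjusted p between 0.0534 and 0.191). *Peg12* was measured at 3.75 and 2.22 CPM in Daxx-/- mESCs, 5.05 and 5.33 with DAXX, 2.72 and 2.79 in H3.3 KO mESCs, 9.02 and 9.64 with WT H3.3, and 1.62 and 0.821 with L126A-L130A H3.3. It was lower with the mutant than with WT H3.3, at -2.94 (SE 0.42, adjusted p = 0.0317), and the call was lost without any 1 library other than the Daxx-/- replicates (adjusted p between 0.0622 and 0.259) and with only the groups compared (adjusted p = 0.0738). With WT H3.3 against H3.3 KO it was at 1.76 (SE 0.39, adjusted p = 0.147), which did not pass with edgeR and was called by DESeq2. *Qpct* was higher in the H3.3 lines than in the Daxx lines, at 2.65 (SE 0.46, adjusted p = 0.00225), and was lost without the DAXX line (adjusted p = 0.0608). With DAXX and with WT H3.3 edgeR called 0 of these genes, with 7 and 9 of 31 at an unadjusted p under 0.05, where 21.8% and 13.3% of all genes were, and 3 called by DESeq2 in each.

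The 32 genes known to keep or read imprints, among them *Zfp57*, *Trim28* and *Dnmt1*, were all tested. With DAXX, *Daxx* itself rose, at a log2 fold change of 1.41 (SE 0.18, adjusted p = 0.0212), and *Dppa3*, which protects maternal methylation in the zygote, fell, at -3.60 (SE 0.52, adjusted p = 0.0244), from 61.1 and 156 to 6.79 and 11.2 CPM. The *Dppa3* call was lost without either DAXX or either WT H3.3 library (adjusted p between 0.0618 and 0.256), and that of *Daxx* without those or Daxx-/- replicate 2 (adjusted p between 0.0549 and 0.189). With only the Daxx lines in the fit neither passed (adjusted p = 0.131 and 0.125). *Ctcfl*, a relative of the insulator protein CTCF, was lower in the H3.3 lines, at -1.04 (SE 0.28, adjusted p = 0.0158), and was lost without replicate 2 of any of Daxx-/-, DAXX and H3.3 KO or replicate 1 of WT H3.3 or L126A-L130A (log2 fold change between -0.96 and -0.83, adjusted p between 0.0329 and 0.0592), and without the Daxx-/- or the L126A-L130A line (adjusted p = 0.173 and 0.118). In the comparisons of the H3.3 lines edgeR called 0, with 4, 6 and 9 of 32 at an unadjusted p under 0.05, where 13.3%, 16.9% and 12.3% of all genes were, and DESeq2 called 0 with WT H3.3 and 2 in each mutant comparison.

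Of 13 genes of the IGF pathway, on which several imprinted genes act, 11 were tested. *Igf2bp2*, which binds *Igf2* mRNA, fell with WT H3.3, at a log2 fold change of -1.09 (SE 0.16, adjusted p = 0.0411), from 120.5 and 144 to 58.8 and 65.7 CPM. The call was lost without any 1 library of the H3.3 lines (adjusted p between 0.0717 and 0.5002). *Igfbp5*, a secreted IGF-binding protein, was lower in the H3.3 lines than in the Daxx lines, at -1.54 (SE 0.43, adjusted p = 0.0198), and was lost without DAXX replicate 2, H3.3 KO replicate 2 or WT H3.3 replicate 1 (adjusted p between 0.0561 and 0.0950) and without the Daxx-/-, the H3.3 KO or the WT H3.3 line (adjusted p between 0.0757 and 0.0853).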

How the data were processed

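PolyA RNA of 5 mESC lines, 2 libraries each, was sequenced by the authors, who used Bowtie and RSEM with build mm9. What the authors deposited are RSEM expected counts by gene, although named TPM, and no value was scaled for depth or length. Counts were rounded, scaled by median-of-ratios factors and fitted together with edgeR 4.0.16 (quasi-likelihood) in R 4.3.3. A gene was tested if 2 or more libraries had at least 1 CPM before scaling, with Benjamini-Hochberg adjustment over all 13201. SE is the size of a log2 fold change over the square root of F. Fits were tested on simulated data. Genes called, or at least 2-fold apart without overlap, in any of 5 comparisons are given in every library, other listed genes by range; of other lists, called genes are named. Members and lists were chosen with earlier results of these data known. *Amigo2* and other neighbours were named after their values were seen. Alternatives were TMM factors, no filter, DESeq2 1.42.0, only the groups compared, a replicate block, adjusted p alone and each library left out, and, chosen after seeing the data, each line left out of the comparison of lines. Lengths and neighbours are from GRCm38 annotations. Python 3.11.15, pandas 2.3.3 and numpy 2.4.6 were used. Levels rest on counting error and 2 libraries a line.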

Additional observations from a re-analysis of the deposited data

How the results depend on the processing

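Alternatives were followed for 30 pairs of gene and comparison, those called or at least 2-fold apart without overlap, and not gene by gene for the others. Of 482 values 395 kept their side of the threshold, 70 lost a call, 16 gained one and 1 reversed, *Slc38a4* between the H3.3 and Daxx lines, at 0.168 without the L126A-L130A line. The counts called, 1 with DAXX, 0 with WT H3.3, 2 for L126A-L130A against H3.3 KO, 2 against WT H3.3, 8 for H3.3 against Daxx lines and 0 in both differences of effects, moved as follows, and the cause was not tested. With DESeq2 they were 2 with DAXX, 2 with WT H3.3, 1 for the DAXX effect minus the WT H3.3 effect and 1 for the DAXX effect minus the L126A-L130A effect. With only the groups compared they were 0 with DAXX, 2 with WT H3.3, and 1 for the mutant against H3.3 KO and 1 against WT H3.3. The line comparison uses all 10 libraries, so this setting gave no value for it. With a replicate block they were 3 with DAXX, 1 with WT H3.3, 4 for the mutant against WT H3.3 and 1 for the DAXX effect minus the WT H3.3 effect, with *Rtl1* and *Slc38a4* added with DAXX, *Grb10* with WT H3.3 and in that difference, and *Mest* and *Snrpn* for the mutant against WT H3.3. Replicates of the same number had deviations that correlated between -0.0442 and 0.574 over pairs of lines, and the labels give them no shared batch. With no filter the WT H3.3 count was 1, and with TMM factors the count against WT H3.3 was 1. Counts within 1.5 times the first were not taken as moved: between the H3.3 and Daxx lines 6 with TMM factors, 7 with no filter, 9 with the block and 11 with adjusted p alone, and 3 against WT H3.3 with DESeq2. With each line left out in turn, chosen after seeing the data, the count between the H3.3 and Daxx lines was 5 without the Daxx-/- line and 6 or 7 without another.

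Without 1 library at a time the counts ranged from 0 to 5 with DAXX, 0 to 2 for the mutant against H3.3 KO, 0 to 3 against WT H3.3, 5 to 8 between the H3.3 and Daxx lines and 0 to 1 for the DAXX effect minus the WT H3.3 effect. The lone library left in a line is then assumed to vary like the other lines. *Grb10* was called in 14 of 15 alternatives in both mutant comparisons, *Slc38a4* in 7 against H3.3 KO and 6 against WT H3.3, and *Peg10* with DAXX in 7. *Igf2* and *Rtl1* rested on few counts, and each line on 2 libraries.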

Other observations

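Replicates of a line were compared in the listed imprinted genes and in all genes, which were not matched to them by level. The median size of the difference between replicates, on log2(CPM + 1), was 0.48 for the 29 tested genes against 0.36 for all genes in Daxx-/- mESCs and 0.39 against 0.22 with DAXX. In H3.3 KO mESCs it was 0.37 against 0.18, with WT H3.3 0.32 against 0.16 and with L126A-L130A H3.3 0.37 against 0.27. The median size was thus larger for the listed genes in each of the 5 lines, which was not tested. In Daxx-/- mESCs 6 listed genes, *Cdkn1c*, *Phlda2*, *Slc22a18*, *Ascl2*, *Sgce* and *Zdbf2*, differed at least 2-fold in CPM + 1 between replicates, where 9.99% of all genes did. In the L126A-L130A line 4 did, *Igf2*, *Slc22a18*, *Mest* and *Slc38a4*, where 5.11% did. With DAXX 2 did, *Slc22a18* and *Sgce*, where 2.23% did, and in H3.3 KO mESCs and with WT H3.3 0 did, where 2.13% and 0.636% did. All these counts are on CPM + 1. On CPM alone further genes at low levels differed more than 2-fold. Examples are *Rtl1* in Daxx-/- mESCs, at 1.11 and 0.166, *Nnat* with DAXX, at 3.32 and 1.35, and *Nnat* in H3.3 KO mESCs, at 1.59 and 0.745. Of the 6, *Cdkn1c*, *Phlda2*, *Slc22a18* and *Ascl2* lie in the *Kcnq1ot1* locus and all were higher in Daxx-/- replicate 2. The same library had the highest sums of fibroblast, primitive endoderm and trophoblast markers, the last with *Ascl2* among them. It had the lowest sums of naive pluripotency, neural and primed epiblast genes, and the part of these markers was not tested. The Daxx-/- replicates had the lowest correlation within a line, at 0.964 on log2(CPM + 1), where the other lines had between 0.981 and 0.992.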
